A study of Mus musculus with 8 samples.

Results

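The genes described here are the Gab family of docking proteins (Gab1, Gab2 and Gab3) and partners of Gab2 at activated receptors (Grb2, Sos1, Shc1, Ptpn11 and Crkl). They were chosen by name, and all 8 were found among the 13305 genes of the deposited count table. RNA-seq was performed on whole bone marrow (BM) of 8 C57BL/6N mice, with 1 library per mouse. All of them carried Mx1-Cre, 1 inactivated Dnmt3a allele (Dnmt3a+/-) and 2 Flt3-ITD alleles (Flt3ITD/ITD), and are referred to as AML mice. They differed in Gab2: 3 mice were Gab2+/+ (AML WT), 2 were Gab2+/- (AML HET) and 3 were Gab2-/- (AML KO), and thus had 2, 1 or 0 intact Gab2 alleles. Mx1-Cre is driven by an interferon-inducible promoter, and the study analyzed its mice without inducing it because spontaneous Cre activity had already recombined Dnmt3a, whereas the Flt3-ITD and Gab2 alleles are constitutive and present in every cell. The labels give neither age nor sex.

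Gab proteins have no enzymatic activity. They work as scaffolds: a PH domain binds membrane lipids, proline-rich stretches hold the SH3 domains of Grb2, and tyrosines along the rest of the chain are docking points for proteins with SH2 domains. Among these are Shp2, the phosphatase encoded by Ptpn11, as well as PI3K and the Crk family. In myeloid cells, Gab2 is best known as a docking protein of cytokine receptors and of Bcr-Abl. Grb2 and Shc1 connect the same receptors to Sos1, which loads Ras with GTP.

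To see what a count for Gab2 can mean in an AML KO mouse, the knockout allele was set against the annotated transcripts. Gab2 (ENSMUSG00000004508) lies on the plus strand of chromosome 7 from 97081586 to 97308946 (GRCm38, GENCODE M21). In the knockout allele, a neomycin cassette stands in place of exons 5 to 10. Exons 1 to 4 are kept and hold 1198 of the 1998 coding bases of the longer annotated mRNA, Gab2-201. Of its whole length of 6168 bases they hold 1438 (23.3%), since most of exon 10 is a long 3' UTR. In the shorter mRNA Gab2-202 of 2065 bases, which ends soon after the stop codon, the kept exons hold 60.4%.

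The following 3 stretches of the Gab2-201 mRNA, from GENCODE M21, show where a read would and would not tell the alleles apart. The start of the coding sequence in exon 1 (chr7:97081826-97081885, start codon in capitals) is present in both alleles. The junction of exon 4 (30 bases, chr7:97299373-97299402, lower case) and exon 5 (30 bases, chr7:97300299-97300328, capitals) can arise only from the intact allele. The same holds for the end of the coding sequence in exon 10 (chr7:97304960-97305019, stop codon in capitals), as far as the cassette replaces all of that exon.
Gab2 coding start: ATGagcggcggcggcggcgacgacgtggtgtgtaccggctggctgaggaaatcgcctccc
Gab2 exon 4 to exon 5: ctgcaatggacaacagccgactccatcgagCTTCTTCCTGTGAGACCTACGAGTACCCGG
Gab2 coding end: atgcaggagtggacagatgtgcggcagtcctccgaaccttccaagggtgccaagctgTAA

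**Figure D1:**
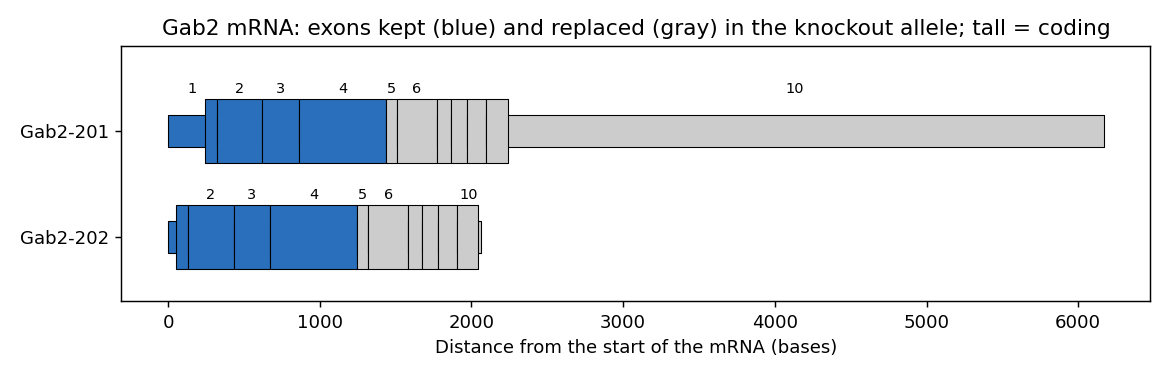
Exons of the annotated Gab2 mRNAs Gab2-201 and Gab2-202, along the distance from the mRNA start in bases. Exons kept in the knockout allele are blue, replaced exons gray, and tall boxes are coding. The kept exons take 23.3% of Gab2-201 and 60.4% of Gab2-202.

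The deposited table gives 1 count per gene and does not show on which exons the reads lie. A Gab2 count in AML KO BM is therefore a count of reads on the locus. It is no measure of intact Gab2 mRNA, nor of the number of transcripts, since a shorter transcript gives fewer reads.

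The libraries held 28009258 to 39266815 counts on genes, and members had between 88 counts (Gab3 in AML KO replicate 1) and 9619 counts (Grb2 in AML WT replicate 1). Levels are given as CPM, the counts of a gene per 1000000 counts of the library after TMM scaling in edgeR. Marker lists were read as a check of the tissue. Summed over 10 mature neutrophil genes, the level was 1279 to 4669 CPM in AML WT, 5376 to 6050 in AML HET and 10403 to 17056 in AML KO BM. For 13 erythroid genes it was 134.8 to 211.2, 334.6 to 1326 and 875.3 to 3001 CPM, and for 10 megakaryocyte and platelet genes 35.3 to 38.8, 57.4 to 92.2 and 225.0 to 335.9 CPM. In all of these lists, each AML KO mouse lay above each AML WT mouse. For 10 monocyte genes, the sums were 5862 to 6690, 5601 to 5889 and 4633 to 6119 CPM. For 9 of 10 macrophage and osteoclast genes in the table (Dcstamp is not listed), they were 293.1 to 358.4, 178.8 to 187.3 and 129.9 to 253.8 CPM, and for 10 HSPC genes 858.6 to 897.0, 906.9 to 990.4 and 1001 to 1199 CPM. Sums for B cell genes (7 of 8 in the table, without Ms4a1) ran from 38.5 to 82.7 CPM over all mice, those for 10 T and NK cell genes from 106.0 to 161.7 and those for 8 stroma and endothelium genes from 364.3 to 832.3. In each of these 3 lists, the AML WT and AML KO ranges overlapped. No listed marker was at 0 in all mice. In whole BM, fewer cells of a type and less RNA per cell cannot be told apart.

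First, Gab2 itself was examined in every mouse. Its level was 93.9, 68.5 and 61.6 CPM in AML WT replicates 1 to 3 (3820, 2168 and 2012 counts). In AML HET replicates 1 and 2 it was 55.8 and 50.8 CPM (1592 and 1593 counts). In AML KO replicates 1 to 3 it was 35.0, 47.2 and 40.2 CPM (1069, 1297 and 1363 counts). The 3 groups did not overlap at any point: each AML HET mouse lay below each AML WT mouse and above each AML KO mouse. Taken pair by pair and in either direction, 18.1% of all genes had no overlap for AML HET and 22.1% for AML KO against AML WT. Between AML KO and AML HET this was 24.2%. The means were 74.7 ± 17.0 (SD, n = 3), 53.3 ± 3.57 (SD, n = 2) and 40.8 ± 6.15 CPM (SD, n = 3).

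In AML KO BM, the Gab2 read level stood at 54.6% of AML WT (95% interval 41.2% to 72.2%), which is a log2 fold change (log2FC) of −0.87 with an SE of 0.18 (adjusted p = 0.0420, edgeR quasi-likelihood F test, Benjamini-Hochberg adjustment over 13305 genes). Of all genes, 2.09% passed this threshold in this comparison, and 0.323% passed and were lower. Without AML WT replicate 1, the mouse with the highest level, the log2FC was −0.68 (edgeR, adjusted p = 0.0783). When each of the 8 mice was left out in turn, the log2FC stayed between −0.99 and −0.68, and the call held in 2 fits, those lacking AML WT replicate 3 or AML KO replicate 2. The adjusted p in edgeR was 0.110 in the fit lacking AML WT replicate 2, 0.135 in that lacking AML KO replicate 1 and 0.159 in that lacking AML KO replicate 3. Leaving out either AML HET mouse gave 0.0809 and 0.0815 in edgeR.

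In AML HET BM, the level was 71.3% of AML WT (95% interval 52.1% to 97.7%), a log2FC of −0.49 (SE 0.20). This did not pass (edgeR, adjusted p = 0.990), whereas 0.0225% of all genes did. Its unadjusted p was under 0.05, as that of 2.47% of all genes was. Between AML KO and AML HET the log2FC was −0.39 (SE 0.20, edgeR, adjusted p = 0.847). In that comparison, 0 genes (0%) were called by edgeR, although 780 (5.86%) had an unadjusted p under 0.05, and 77 were called by DESeq2. The comparisons share mice, so they are not independent of each other.

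Since the study asks for an effect of Gab2 dosage, all 8 mice were also fitted with the number of intact alleles as a single slope. For each allele lost, the Gab2 read level fell to 73.9% of the level before (95% interval 64.9% to 84.0%), a log2 change of −0.44 (SE 0.08, edgeR, adjusted p = 0.0230). This slope passed for 2.64% of all genes. This call held in 5 of the 8 fits without a single mouse. The adjusted p in edgeR was 0.0906 in the fit lacking AML KO replicate 1, 0.0877 in that lacking AML KO replicate 3 and 0.0608 in that lacking AML WT replicate 2. Gab2 was the only one of the 8 genes to pass, both in the slope and between AML KO and AML WT. Over the same 8 mice, Gab2 also varied with the summed markers (Pearson r, log2 scale). The r was −0.971 for mature neutrophil, −0.928 for erythroid, −0.880 for megakaryocyte and platelet and −0.863 for HSPC markers. It was 0.890 for macrophage and osteoclast, 0.861 for monocyte, 0.611 for stroma and endothelium, −0.701 for T and NK cell and −0.650 for B cell markers. Not all genes of a list followed its sum. Between AML KO and AML WT, 5 of 9 macrophage and osteoclast genes had a log2FC below 0 and 4 above. For stroma and endothelium, 2 of 8 were below 0 and 6 above, while 51.9% of all genes were below 0. The part of the marker levels in the Gab2 level was not tested.

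**Figure D2:**
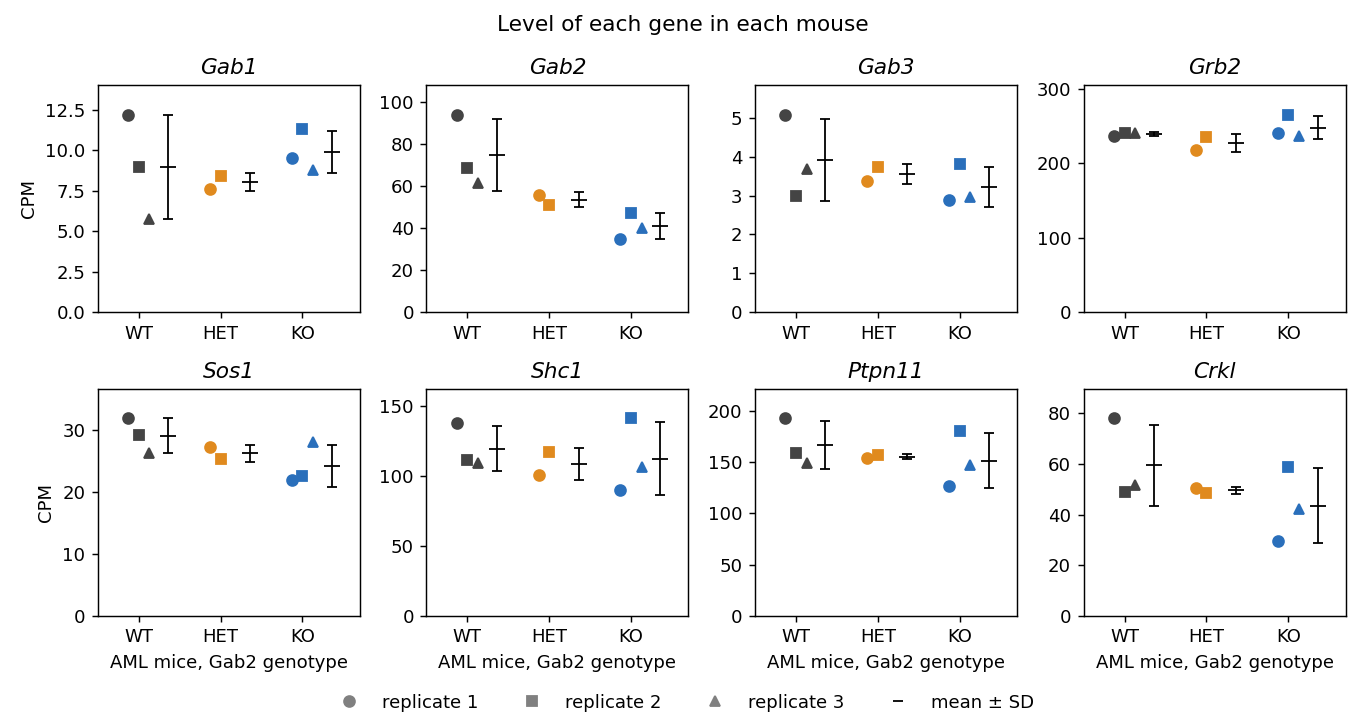
Level of each gene in CPM (vertical axes, starting at 0) in each AML WT, AML HET and AML KO mouse. Symbols mark the replicate, and bars show mean ± SD (n = 3, 2 and 3). The groups are separate for Gab2, while AML WT and AML KO mice overlap in the other 7 genes. Of all genes, 22.1% have no overlap between AML WT and AML KO mice.

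The relatives of Gab2 were examined next, with gene positions in GRCm38 as annotated by GENCODE M21. Gab1 (chr8:80764438-80880519, minus strand), the ubiquitous member of the family and the main docking protein of the Met receptor, was at 12.2, 8.98 and 5.73 CPM in AML WT mice, 7.64 and 8.41 in AML HET mice and 9.55, 11.3 and 8.78 CPM in AML KO mice. The AML WT mice spread over more than the whole range of the other groups. The log2FC of AML KO over AML WT was 0.14 (95% interval −0.45 to 0.72, edgeR, adjusted p = 0.791). Leaving out AML WT replicate 3 gave −0.10 and leaving out replicate 1 gave 0.42, so its sign turned with single mice.

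Gab3 (chrX:74966843-75085458, minus strand), the X-linked member that is mostly expressed in blood cells and macrophages, was the least counted of the 8 genes. Its counts were 207, 95 and 120 in AML WT mice, 96 and 117 in AML HET mice and 88, 105 and 101 in AML KO mice. These correspond to 3.92 ± 1.07 (SD, n = 3), 3.55 ± 0.256 (SD, n = 2) and 3.23 ± 0.519 CPM (SD, n = 3). Apart from AML WT replicate 1 at 5.09 CPM, all mice lay between 2.88 and 3.82 CPM. The log2FC of AML KO over AML WT was −0.29 (95% interval −0.87 to 0.30, edgeR, adjusted p = 0.554) and −0.06 without that mouse. A rise of Gab1 or Gab3 was not detected, but the intervals include rises to 165.3% of AML WT for Gab1 and to 123.1% for Gab3.

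Levels of different genes were compared per length, as CPM per kb of annotated exon. Averaged over the 8 mice, Gab2 was at 9.18 ± 3.02, Gab1 at 1.79 ± 0.400 and Gab3 at 0.917 ± 0.184 CPM per kb (SD, n = 8). The lowest Gab2 value of any mouse, 5.67 in AML KO replicate 1, was above the highest Gab1 value of 2.40. Here and in the following ratios, Gab2 was divided by its full exon length of 6168 bases in all mice. The knockout allele as described keeps only 1438 of these bases, so the full length cannot apply to AML KO mice. The ranges of Gab1 (1.13 to 2.40) and Gab3 (0.740 to 1.31) overlapped. Gab3 was divided by 3891 bases of annotated exon, while its longest transcript has 2153. At that length, its level per kb would be higher. Of the summed counts per kb of Gab1, Gab2 and Gab3 in a mouse, Gab2 made up 80.4%, 81.4% and 82.8% in AML WT mice, 79.3% and 75.9% in AML HET mice and 68.4%, 70.5% and 72.3% in AML KO mice. This share does not depend on library scaling, and its mean of 70.4% ± 1.96 in AML KO lay below that of 81.5% ± 1.22 in AML WT (SD, n = 3 each), a difference of −11.2 percentage points. The groups did not overlap (two-sided exact permutation p = 0.1, below which 3 mice against 3 cannot go). Gab2 thus held the majority of this sum in every mouse, including those without an intact allele. The direction of the difference depends on the length given to Gab2 in AML KO mice. If all of their reads lay on the kept exons of Gab2-201 (1438 bases), the share would be 91.1% ± 0.766 (SD, n = 3), above that of AML WT, with a difference of 9.52 percentage points. The share is thus one of reads per kb, and a fall in the share of Gab2 transcripts was not established.

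The ratio of Gab2 to Gab1 counts per kb alone, chosen after the data were seen, was 7.07 in the AML WT, 5.47 in the AML HET and 3.39 in AML KO BM (geometric means). On the log2 scale the difference of AML KO to AML WT was −1.06, and the groups did not overlap (two-sided exact permutation p = 0.1, n = 3 each). With the length of the kept exons for AML KO mice, the ratio would be 14.6 in AML KO BM and the difference 1.04, so its direction was not established per transcript either.

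Grb2 (chr11:115644045-115708597, minus strand) is the adaptor that carries Gab2 to receptors, with SH3 domains on both sides of its SH2 domain. It was the most abundant of the 8 genes. It was at 236.5, 240.4 and 240.4 CPM in AML WT mice, 217.9 and 235.1 in AML HET mice and 240.6, 265.3 and 236.6 CPM in AML KO mice. All 8 mice thus lay close together, with the narrowest spread in AML WT (SD 2.26 CPM, n = 3). The log2FC of AML KO over AML WT was 0.05 (95% interval −0.18 to 0.28, edgeR, adjusted p = 0.810), which covers levels from 88.0% to 121.8% of AML WT. Both AML HET mice lay below the AML WT mice, and the log2FC of −0.08 did not pass (edgeR, adjusted p = 0.990). Groups without overlap, in either direction, were seen at 18.1% of all genes in this comparison.

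Sos1 (chr17:80393751-80480453, minus strand), the exchange factor that activates Ras once Grb2 has brought it to the membrane, was at 31.8, 29.0 and 26.2 CPM in AML WT mice, 27.1 and 25.2 in AML HET mice and 21.9, 22.5 and 28.02 CPM in AML KO mice. Only AML KO replicate 3 reached into the range of AML WT. The log2FC of AML KO over AML WT was −0.26 (95% interval −0.59 to 0.06, edgeR, adjusted p = 0.345). Its unadjusted p was above 0.05, as were those of Gab1, Gab3 and the other partners, whereas 17.7% of all genes had one under 0.05 in this comparison.

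Shc1 (chr3:89418443-89430027, plus strand), an adaptor that is phosphorylated by receptors and then recruits Grb2, was at 138.0, 111.3 and 109.4 CPM in AML WT mice, 100.6 and 116.8 in AML HET mice and 89.8, 141.1 and 106.2 CPM in AML KO mice. The AML KO mice included both the lowest and the highest value of all. The log2FC of AML KO over AML WT was −0.09 (95% interval −0.49 to 0.31, edgeR, adjusted p = 0.798), which became 0.048 when AML KO replicate 1 was left out and −0.29 when replicate 2 was.

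Ptpn11 (chr5:121130533-121191397, minus strand), which encodes the phosphatase Shp2, was at 192.4, 158.3 and 148.6 CPM in AML WT mice, 153.9 and 156.7 in AML HET mice and 126.8, 179.8 and 146.6 CPM in AML KO mice. The groups overlapped in each comparison. Its log2FC of AML KO over AML WT was −0.14 (95% interval −0.49 to 0.21, edgeR, adjusted p = 0.626). Crkl (chr16:17451987-17487434, plus strand), an SH2 and SH3 adaptor best known as a substrate of Bcr-Abl, was at 78.1, 48.8 and 51.6 CPM in AML WT mice, 50.6 and 48.7 in AML HET mice and 29.5, 58.8 and 42.4 CPM in AML KO mice. Of the partners, Crkl had the lowest log2FC, −0.45 (95% interval −1.02 to 0.12, edgeR, adjusted p = 0.356). It became −0.21 when AML WT replicate 1 was left out and −0.72 when AML KO replicate 2 was, and did not pass in any of these fits.

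**Figure D3:**
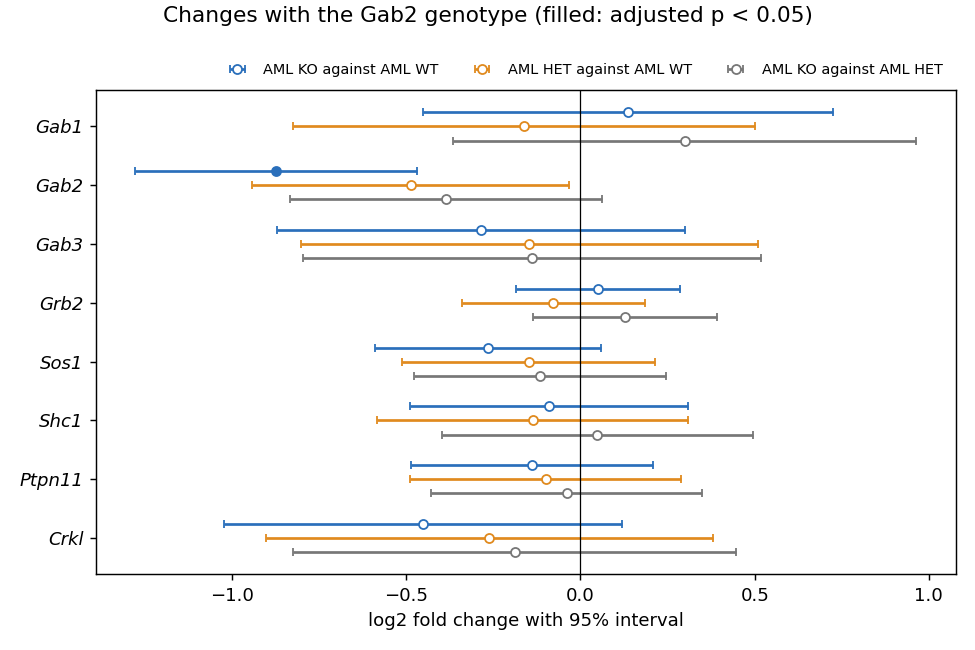
Log2 fold changes (points) with 95% intervals (bars) of the 8 genes in the 3 comparisons of Gab2 genotypes, from edgeR. Filled points have an adjusted p under 0.05, which holds for Gab2 between AML KO and AML WT alone. The interval of Gab2 between AML HET and AML WT (−0.94 to −0.03) also lies below 0, while all intervals of the other genes include 0.

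Over the 8 genes, the median log2FC of AML KO over AML WT was −0.20, against −0.02 over all genes, with 6 of the 8 below 0, as were 51.9% of all genes. Groups without overlap were seen in 1 of the 8 genes (Gab2), against 22.1% of all genes. AML KO and AML HET mice did not overlap in Gab2, which was lower in AML KO, nor in Gab1 (log2FC 0.30) and Grb2 (0.13), which were higher. These are 3 of the 8 genes, against 24.2% of all genes, and the edgeR adjusted p was 0.897 for Gab1 and 0.886 for Grb2. Between AML HET and AML WT all 8 log2 fold changes were below 0, as were 51.5% of all genes, with a median of −0.15 against −0.01 over all genes. Without AML WT replicate 1, those of Gab1, Gab3 and Ptpn11 were above 0. That mouse had the highest level of all 8 mice in 6 of the 8 genes, whereas it was the highest at 28.5% of all genes. AML KO replicate 1 had the lowest level in 6 of the 8 genes, and was the lowest at 25.8% of all genes. Between these mice, the summed neutrophil markers went from the lowest value of all (1279 CPM in AML WT replicate 1) to the highest (17056 CPM in AML KO replicate 1), and the monocyte markers from the highest (6690 CPM) to the lowest (4633 CPM). The part of these cells in the levels of the 8 genes was not tested.

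Per kb of exon and averaged over the 8 mice, the partners followed the order Grb2 (82.0 ± 4.44), Ptpn11 (21.1 ± 2.71), Shc1 (20.2 ± 3.12), Crkl (10.1 ± 2.75) and Sos1 (2.5003 ± 0.310 CPM per kb, SD, n = 8), with Gab2 between Crkl and Sos1. Ptpn11 and Shc1, Crkl and Gab2, and Sos1 and Gab1 were neighbors whose ranges overlapped. The place of Gab2 rests on an average that includes AML HET and AML KO mice, at its full exon length. In AML WT mice alone, Gab2 (12.1 ± 2.76) stood slightly above Crkl (11.8 ± 3.20 CPM per kb, SD, n = 3 each). Grb2 was set apart from all others, with a lowest value of 74.7 against at most 25.7 CPM per kb for Ptpn11. The order holds for the union of annotated exons as length. For Shc1 this is 5645 bases, while its longest transcript has 3250, at which its level per kb would be higher. The place of Shc1 relative to Ptpn11 was thus not established.

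Next, Gab2 was set against its partners within each mouse, which removes library scaling. Per kb, the log2 ratio of Gab2 to Ptpn11 was −0.75, −0.93 and −0.99 in AML WT mice, −1.18 and −1.35 in AML HET mice and −1.58, −1.65 and −1.59 in AML KO mice. The 3 genotypes were separate, and the AML KO mice lay within an SD of 0.04. As geometric means of counts per kb, Gab2 stood at 0.539 of Ptpn11 in the AML WT, 0.416 in the AML HET and 0.329 in AML KO BM. The difference of −0.71 between AML KO and AML WT was larger than the spread in either group (SD 0.12 and 0.04, n = 3 each, two-sided exact permutation p = 0.1). With single mice left out it stayed between −0.76 and −0.65, a narrower range than that of the Gab2 level itself. The log2 ratio of Gab2 to Grb2 was −2.41, −2.89 and −3.05 in AML WT mice, −3.05 and −3.29 in AML HET mice and −3.86, −3.57 and −3.64 in AML KO mice. AML HET replicate 1 and AML WT replicate 3 were nearly equal, and all AML KO mice were lower than the rest. Between AML KO and AML WT it differed by −0.91 (two-sided exact permutation p = 0.1, n = 3 each). These are ratios of reads at the full Gab2 length, which the knockout allele as described does not hold. With the length of the kept exons in AML KO mice, Gab2 would stand at 1.41 of Ptpn11 in AML KO BM, and the log2 differences would be 1.39 for Ptpn11 and 1.19 for Grb2.

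**Figure D4:**
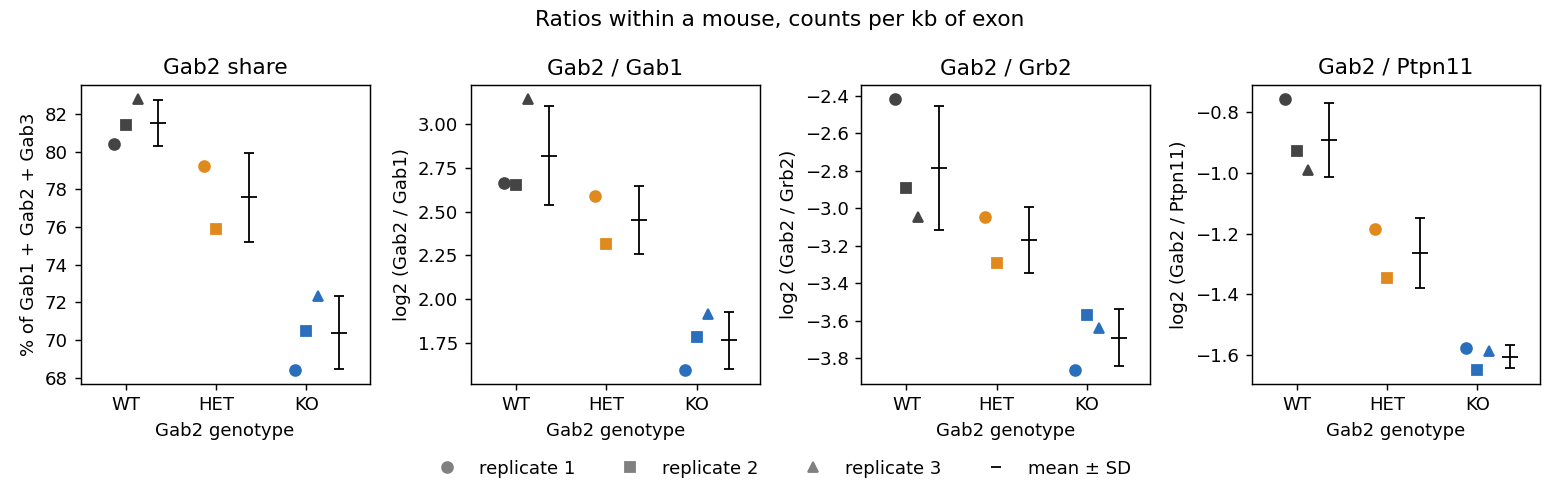
Gab2 relative to its relatives and partners within each mouse, from counts per kb of exon, as a share in percent (left) and as log2 ratios. Points are mice, and bars are mean ± SD (n = 3, 2 and 3). With the full Gab2 length of 6168 bases in all mice, as plotted, AML KO mice lie below all AML WT mice in each panel, at 68.4% to 72.3% against 80.4% to 82.8% for the share. The knockout allele as described holds only the 1438 bases of the kept exons. With this length for AML KO mice, the differences turn.

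The surrounding pathway was then read from 4 lists of genes, compared by counts and medians only. Of 31 docking and adaptor relatives (other Grb2, Shc, Irs, Dok and Cbl family genes), 24 are in the table, and Shc2, Shc3, Shc4, Irs1, Irs4, Sit1 and Cblc are not. Between AML KO and AML WT 0 of the 24 passed in edgeR, against 2.09% of all genes, and their median log2 fold change was −0.21. Of the 24, 6 had an unadjusted p under 0.05, against 17.7% of all genes. DESeq2 called 3 of the 24, Lat among them, against 5.49% of all genes. Lat, an adaptor of T cells, mast cells and platelets, had a log2FC of 0.98 (SE 0.29, adjusted p of 0.148 in edgeR and 0.0260 in DESeq2), with means of 9.53 ± 3.04 CPM for AML WT and 18.7 ± 5.59 CPM for AML KO (SD, 3 mice each). The megakaryocyte and platelet markers were also higher in AML KO BM (225.0 to 335.9 against 35.3 to 38.8 CPM). The summed T and NK cell markers overlapped (128.6 to 161.7 in AML KO against 106.0 to 134.6 CPM in AML WT). Of their 10 genes, 9 had a log2FC above 0 and 1 below, where 51.9% of all genes lay. The part of either cell type in the Lat level was not tested. Cbl, the ubiquitin ligase that ends signaling of many RTKs, was at 156.5, 53.6 and 30.2 CPM in AML WT mice, 36.7 and 35.4 in AML HET mice and 8.18, 52.0 and 34.3 CPM in AML KO mice. As with Crkl, AML WT replicate 1 and AML KO replicate 1 were the extremes and the other mice overlapped. Its log2FC of −1.35 (SE 0.68) did not pass (edgeR, adjusted p = 0.319).

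Among 16 SH2 enzymes and effectors that can dock on Gab proteins, 1 passed between AML KO and AML WT, against 2.09% of all genes, and the median was −0.05. This was Inppl1, which encodes the lipid phosphatase Ship2 that dephosphorylates the product of PI3K. It was at 38.9, 43.9 and 43.3 CPM in AML WT mice, 61.7 and 70.6 in AML HET mice and 58.6, 62.6 and 69.9 CPM in AML KO mice. Both AML HET and all AML KO mice lay above all AML WT mice. Groups without overlap, in either direction, were seen at 18.1% of all genes for AML HET and 22.1% for AML KO against AML WT. The HET and KO ranges of Inppl1 overlapped. The log2FC was 0.60 between AML KO and AML WT (SE 0.12, edgeR, adjusted p = 0.0427). Between AML HET and AML WT it was 0.65 (SE 0.14, adjusted p = 0.505 with edgeR and 0.00923 with DESeq2, which called 0.443% of all genes there). In each of the 8 fits without 1 mouse the adjusted p between AML KO and AML WT was above 0.05, at 0.0647 with AML KO replicate 1 left out and up to 0.170 with AML KO replicate 3 left out. Rasa1, a GTPase-activating protein that switches Ras off, had −0.65 (SE 0.26, edgeR, adjusted p = 0.251).

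The 7 genes of the 14-3-3 proteins, which bind phosphorylated Gab2 and hold it away from Grb2, had a median of 0.00 between AML KO and AML WT. In edgeR 0 of them passed, against 2.09% of all genes, although 1 had an unadjusted p under 0.05 (17.7% of all genes). Sfn had 0.93 (SE 0.28, adjusted p of 0.162 in edgeR and 0.0362 in DESeq2), from 7.11 ± 1.90 to 13.6 ± 4.38 CPM (SD, n = 3 each), and Ywhah had 0.09 (edgeR, adjusted p = 0.752). Sfn was the 1 gene of the 7 called by DESeq2, against 5.49% of all genes. Of 17 genes of the Ras and ERK core, 0 passed in edgeR, against 2.09% of all genes, and the median was −0.01. An unadjusted p under 0.05 was seen for 2 of them (again against 17.7%). Hras had a log2FC of 0.51 (SE 0.21, edgeR, adjusted p = 0.262) and Mapk3, which encodes Erk1, of 0.40 (SE 0.14, edgeR, adjusted p = 0.219). With the allele number as a slope, 0 genes of the 4 lists passed edgeR's threshold, against 2.64% of all genes. DESeq2 called Lat, Inppl1 and Sfn (adjusted p = 0.0145, 0.0185 and 0.0204) as well as Dok2 and Lax1, which are named only for completing this count. DESeq2 called 6.5% of all genes for this slope.

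**Figure D5:**
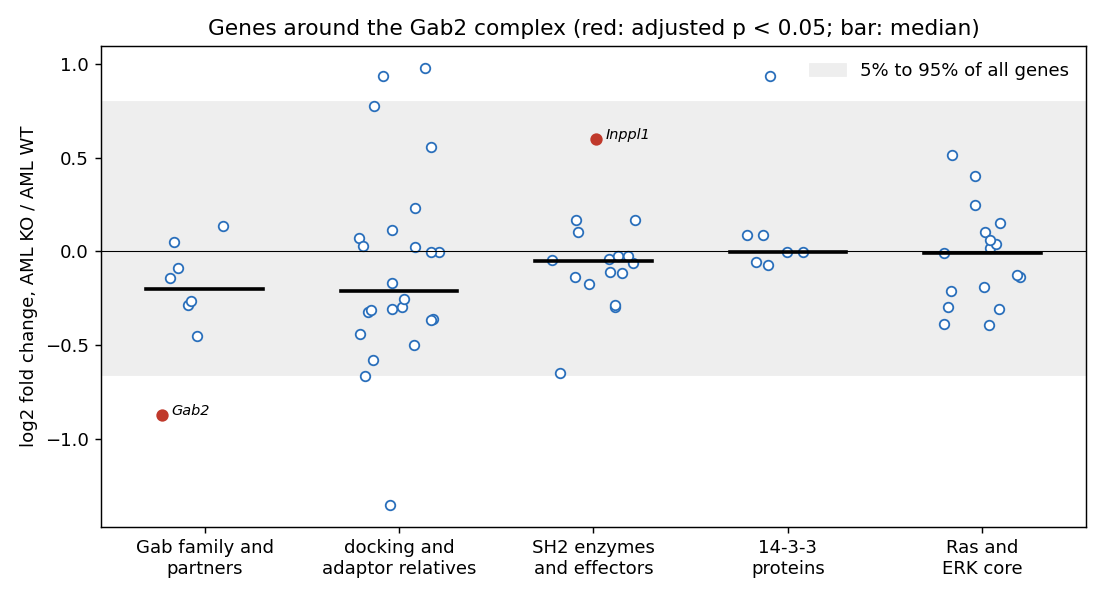
Log2 fold changes between AML KO and AML WT BM (vertical axis) of the 8 genes and of the 4 lists around them. Each point is a gene, black bars are medians (−0.20, −0.21, −0.05, 0.00 and −0.01), red points have an adjusted p under 0.05 in edgeR, and the gray band holds the middle 90% of all genes. Gab2 and Inppl1 are the red points.

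Finally, the genes with the pattern most like that of each member were looked up among all genes, by Pearson correlation of log2 CPM over the 8 mice. As a description, the 4 genes closest to Gab2 were Osbpl3 (r = 0.993), Tmtc3 (0.986), Plekhm3 (0.984) and Igf2bp3 (0.979). They lie on chromosomes 6, 10, 1 and 6, none of them on chromosome 7. Igf2bp3, an RNA-binding protein of fetal and leukemic cells, had a log2FC of −2.07 for AML KO over AML WT (edgeR, adjusted p = 0.0568). After the mean of each group was subtracted, these genes had r of 0.940 to 0.976 with Gab2. They were picked from all genes by their r over these same mice, so these values are no separate evidence of likeness. The closest genes of the others were Tbcel for Gab1 (0.974), Abcc1, a drug efflux pump, for Gab3 (0.986), Hps1 for Grb2 (0.943), Ankrd50 for Ptpn11 (0.994), the splicing helicase gene Ddx46 for Sos1 (0.982), the Polycomb gene Rybp for Crkl (0.993) and Acsf2 for Shc1 (0.990). The best match of Grb2 was the weakest of the 8. All points of these correlations share their libraries, and the marker levels of other cells varied over the same mice.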

How the data were processed

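RNA of whole BM was sequenced by the authors on an Illumina HiSeq4000. Trimmomatic 0.36, STAR 2.5.2b and mm10 are named in the submitters' processing notes, and the counter, annotation and strand setting are not given in the sources used here. The authors deposited raw counts per gene, without normalization. No gene has under 106 counts over the 8 mice. GENCODE M21 (GRCm38) names 13266 of the 13305 Ensembl gene identifiers. Overlapping genes could not be told apart by strand. Replicates are separate mice, and no libraries of a group agreed within sampling noise.

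Counts were tested with edgeR 4.0.16 (R 4.3.3, TMM, filterByExpr, which removed 0 genes, robust quasi-likelihood fit) on all 8 mice with the genotype, or the number of intact Gab2 alleles, as the only term. Benjamini-Hochberg adjustment covered all genes (threshold 0.05). Standard errors and 95% intervals come from the F statistic. Scripts were tested on simulated data. Ratios used the union of annotated exons as length.

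The members and lists were chosen with earlier results of these data known. Named were the 8 members, list genes that passed or were among the 2 with the largest change per list (at least 1 CPM on average), and the genes most like a member. A gene that this rule names is not reported here. Alternatives were DESeq2 1.42.0, limma-voom (limma 3.58.1), other normalizations and filters, the replicate number as a block and single mice left out. Plots were drawn with matplotlib 3.10.9 (Python 3.11.15).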

Additional observations from a re-analysis of the deposited data

How the results depend on the processing

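The 3 or fewer mice per group limit most values, and for Gab3, with as few as 88 counts, counting error adds to this. Log2 fold changes of the 8 genes kept their direction under DESeq2, limma-voom, the other normalizations and filters, without the 10 genes with the most counts and without the erythroid, megakaryocyte and neutrophil markers. The call of Gab2 between AML KO and AML WT was lost with AML WT and AML KO mice alone (−0.87, adjusted p = 0.0809), and its adjusted p ran from 0.000601 to 0.165 over 10 alternatives.

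Over all genes, DESeq2 called 730 between AML KO and AML WT (278 with edgeR), 59 between AML HET and AML WT (3), 77 between AML KO and AML HET (0) and 865 for the allele number (351). Limma-voom called 1 between AML HET and AML WT. Deviations from the group means correlated between −0.51 and 0.29 for mice of the same number. In groups of 3 or fewer mice, these values cannot decide whether the replicate numbers pair the mice. With the replicate number as a block, 19, 0, 0 and 125 genes passed. With this replicate block the log2 change of Gab2 was −0.85 between AML KO and AML WT (adjusted p = 0.165) and −0.43 per allele lost (adjusted p = 0.0820), that of Ptpn11 between AML KO and AML HET turned from below 0 to 0.0061 and that of Cbl to 0.11.

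With single mice left out, 40 (AML WT replicate 2 left out) to 370 (AML KO replicate 2 left out) genes passed between AML KO and AML WT, 1 to 5 between AML HET and AML WT, 0 to 4 between AML KO and AML HET, and 137 to 525 for the allele number. The log2 change of Gab2 ranged from −0.99 to −0.68 between AML KO and AML WT and from −0.49 to −0.35 per allele. Others took both signs in these fits. Between AML KO and AML WT these were Gab1 (−0.10 to 0.42), Grb2 (−0.0051 to 0.081), Shc1 (−0.29 to 0.048) and Ywhah (−0.055 to 0.19). Between AML HET and AML WT they were Gab1 (−0.39 to 0.13), Gab3 (−0.31 to 0.090), Ptpn11 (−0.16 to 0.020) and Mapk3 (−0.0085 to 0.34). Between AML KO and AML HET they were Ptpn11 (−0.19 to 0.077), Crkl (−0.47 to 0.032), Shc1 (−0.16 to 0.19), Cbl (−0.76 to 0.26), Inppl1 (−0.15 to 0.047) and Ywhah (−0.16 to 0.047). Per allele they were Gab1 (−0.033 to 0.21), Grb2 (−0.0065 to 0.034), Shc1 (−0.14 to 0.015) and Ywhah (−0.020 to 0.088).

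The differences of AML KO to AML WT in Gab2 counts per kb turned when AML KO mice were given the length of the kept exons, an alternative chosen after seeing the data. They became 9.52 percentage points for the share among Gab1, Gab2 and Gab3, and on the log2 scale 1.19 relative to Grb2, 1.39 relative to Ptpn11 and 1.04 relative to Gab1. The knockout allele as described lacks exons 5 to 10, so the full length cannot apply to AML KO mice. Counts per gene do not show which shorter length applies.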
